A study of Homo sapiens with 4 samples.

Results

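Circular RNAs of ZKSCAN1 were examined in 4 nanopore libraries. All came from MDA-MB-468, an established cell line of human breast cancer. Members were all back-splice positions of the deposited count table that name ZKSCAN1 among their genes and are not of the antisense type. They numbered 23 of the 211599 positions in the table. The gene was chosen by its counts in these libraries, which were lower in the knockdowns, and the leading position was selected on its total count. Every library was made from cells selected for resistance to radiation over a course of 50 Gy. The 2 shCtrl libraries carried a control hairpin, with the genotype given as WT, and are called controls below. The 2 shHNRNPL libraries carried a stable hairpin that targets HNRNPL, a splicing regulator that binds CA-rich RNA, and are called knockdowns below. Controls thus share the irradiation history of the knockdowns, and the protocols name a single hairpin. Each group had 2 biological replicates by the design text. Among the positions examined here none named HNRNPL, so its own circles were not analysed and the knockdown rests on the labels. The study asked which circular RNAs depend on HNRNPL.

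ZKSCAN1 encodes a zinc finger protein with a KRAB and a SCAN domain. Its best known product outside the protein is a circular RNA of a pair of neighbouring exons, which forms when the splice donor at the end of the downstream exon joins the acceptor at the start of the upstream exon. Inverted Alu repeats in the introns on either side are known to pair and to bring these sites together, and the circle has been studied widely in liver and other tissues. A circle has no free end, so exonucleases that degrade linear RNA spare it.

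ZKSCAN1 lies on the plus strand of chromosome 7, from 100015596 to 100045374 in the RefSeq annotation of GRCh38.p14, the build named in the submitters' processing notes. All 23 positions fell inside that span. The leading position, taken as the member with the most counts, joined 100024307 back to 100023419. Its circle was 668 nt long and held 2 exons. The first spanned 100023419 to 100023932 (514 nt) and the second 100024154 to 100024307 (154 nt). The intron of 221 nt between them was absent from the listed structure, and the table gave no other isoform for this circle. The splice motif at the junction was AG-GT, the usual acceptor and donor pair, and the table gives AGG as the equivalent sequence of the junction. The nearest exon that another member listed upstream ended 4069 nt before the circle, and the nearest one downstream began 5553 nt after it. Long introns thus bordered a circle whose genomic span was 889 nt.

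The leading position held 434 of the 486 ZKSCAN1 counts over the 4 libraries, or 89.3%. The next positions had 5 counts each, and no other member reached the 10 counts needed for the fit across circles. One position had 0 counts in every library. Of the 22 members with counts, 19 were seen in 1 library only. Among 2877 host genes with at least 100 counts, the leading position held a median of 25.2% of a gene's counts, and 37 genes (1.29%), ZKSCAN1 among them, had a leading share at or above that of ZKSCAN1. The ZKSCAN1 circles were therefore nearly a single product by count.

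**Figure D1:**
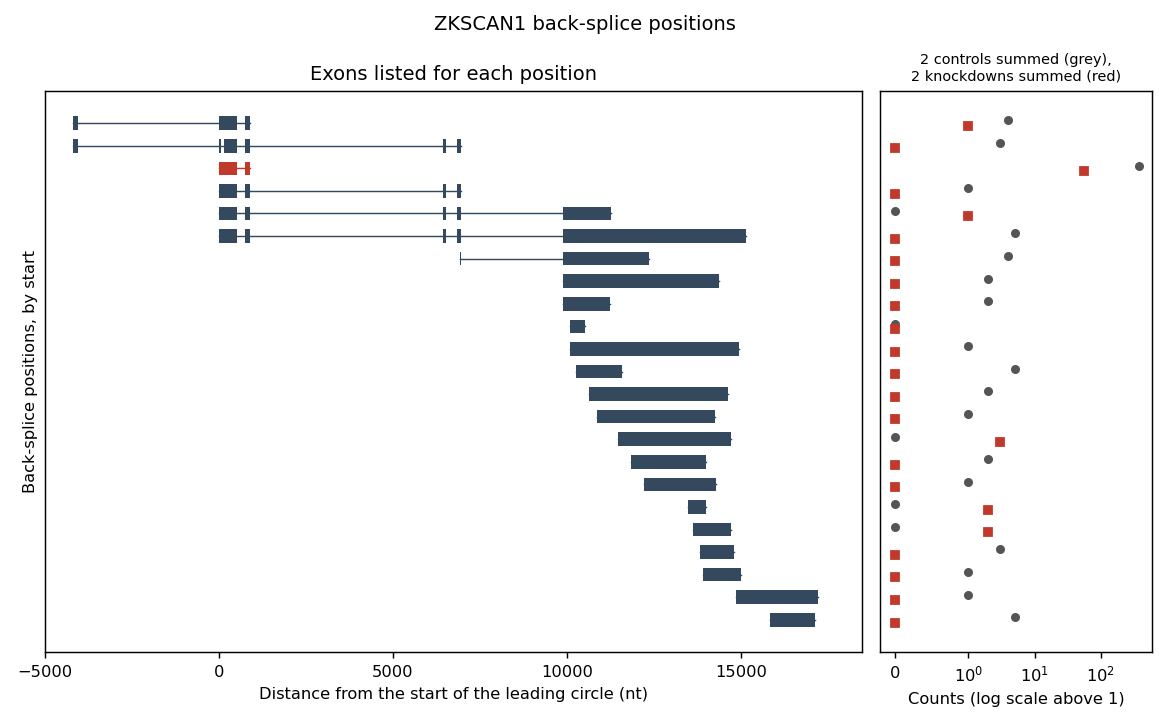
Exons listed for each of the 23 ZKSCAN1 back-splice positions, against distance in nt from the start of the leading circle (red), with the counts summed over 2 controls (grey circles) and 2 knockdowns (red squares) on an axis that is logarithmic above 1. The leading circle of 2 exons carried 434 of 486 counts, and the other positions had at most 5 each.

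The other 22 positions fell into 2 kinds. There were 6 further circles of several exons, which together held 19 counts. One circle of 787 nt kept the leading donor at 100024307 and began at 100019231, so it added an upstream exon of 119 nt. It had 2, 2, 0 and 1 counts in control replicates 1 and 2 and knockdown replicates 1 and 2. One of 887 nt kept the leading acceptor and ended at 100030375, adding exons of 92 and 127 nt, with 1 count in control replicate 2. One of 916 nt ran from 100019231 to 100030375 with 3 counts in control replicate 2. Its first leading exon was listed in 2 pieces of 43 and 381 nt with a gap of 90 nt, a structure seen in no other member. The 3 remaining circles of several exons reached into the most downstream exon listed, which began at 100033305, and were 2268, 2507 and 6137 nt long.

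The exons of the leading circle were in 6 positions and 449 of the 486 counts. By contrast the upstream exon of 119 nt was in 2 positions with 8 counts, and the exon of 92 nt that follows the circle was in 4 positions with 10 counts. Of the counts, 436 began at the leading acceptor and 439 ended at the leading donor. No other position had both ends within 10 nt of the leading ends, so the count of the leading circle did not depend on merging near-identical positions.

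The other kind comprised 16 positions of 1 exon, all beginning at or after 100033305 and ending by 100040635. In genes of this family the last exon encodes the zinc fingers and the end of the transcript. These positions had a median length of 1708.5 nt, held 33 counts in all, and 1 of them had none. Among the 22 positions beside the leading one, 19 carried an asterisk in the motif column, whose meaning the headers do not give, and these 19 held 43 counts. The leading circle had no asterisk.

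The level of the leading circle in each library was taken as counts per 100000 counts of that library. Control replicate 1 had 214 counts, which is 45.3 per 100000 with an exact 95% Poisson interval of 39.4 to 51.8. Control replicate 2 had 164 counts, or 29.5 per 100000 (25.1 to 34.3). The intervals of the 2 controls did not overlap, so they differed by more than counting error, by a factor of 1.54. Knockdown replicate 1 had 25 counts, or 8.84 per 100000 (5.72 to 13.1). Knockdown replicate 2 had 31 counts, or 7.94 per 100000 (5.39 to 11.3). These intervals overlapped. Reads were amplified without molecular identifiers, so intervals and limits from counts cover counting error only.

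Both knockdowns lay below both controls. The means were 37.4 ± 11.2 per 100000 in controls against 8.39 ± 0.640 after knockdown (SD, n = 2 each), a ratio of 4.46. The lower control was 3.33 times the higher knockdown, and the higher control was 5.71 times the lower knockdown. In the fit across all circles (edgeR with TMM scaling) the log2 fold change, knockdown over control, was -2.26 ± 0.46 (SE). Leaving out control replicate 1 gave -1.65, and leaving out control replicate 2 gave -2.59. ZKSCAN1 was picked out with this difference already known, so it is given as a description and no p-value is attached. In bulk RNA, fewer cells with the circle and fewer circles per cell cannot be told apart, and linear ZKSCAN1 RNA was not measured.

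**Figure D2:**
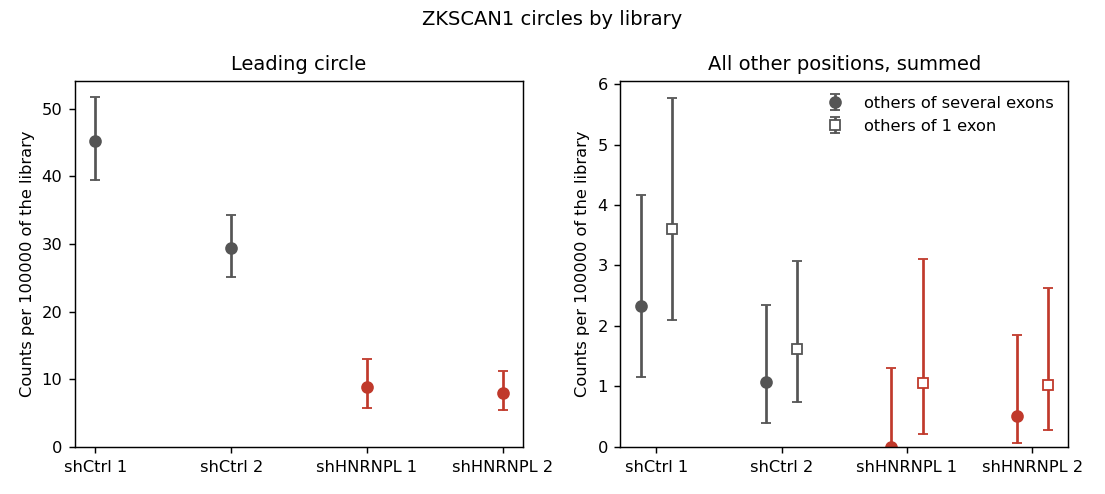
Counts per 100000 in each library for the leading circle (left) and for the other positions summed by kind (right), with exact 95% Poisson intervals that cover counting error only; grey marks controls and red knockdowns. The leading circle stood at 45.3 and 29.5 in the controls and at 8.84 and 7.94 in the knockdowns.

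The same measures were taken over all circles. In edgeR's quasi-likelihood test, 0 of 21576 circles (0%) passed an adjusted p of 0.05, with 2925 at an unadjusted p under 0.05 and 1085 past the threshold in DESeq2. Both knockdowns lay below both controls for 22.9% of the circles tested, and for 31.2% of the 1869 circles with at least 100 counts. A group mean at least 4-fold lower in knockdowns, which the leading ZKSCAN1 circle had, was found for 21.1% of all circles tested and for 1.87% (35) of those with at least 100 counts. The median log2 fold change was -0.41 over all circles and -0.12 over those with at least 100 counts. Of the latter, 1.23% had a lower log2 fold change than the ZKSCAN1 circle. Among the 1642 exon circles within 10% of its length, the median was -0.25 and 11.8% were lower.

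**Figure D3:**
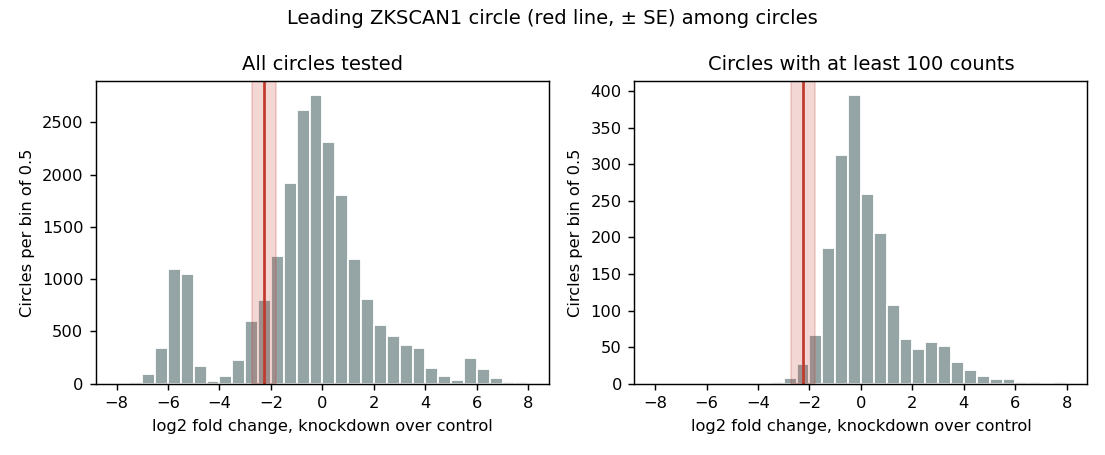
Number of circles per bin of 0.5 in log2 fold change, knockdown over control, for all 21576 circles tested (left) and the 1869 with at least 100 counts (right); the red line and band are the leading ZKSCAN1 circle and its SE. The line at -2.26 lies in the left part of the main mass among all circles and near the left end among the larger ones.

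Against the length of the circle, the leading position reached 67.8 and 44.1 counts per 100000 per kb in the controls, against 13.2 and 11.9 after knockdown. By this measure it ranked 55 among 106227 circles with counts in control replicate 1 and 157 among 77209 in control replicate 2. In the knockdowns it ranked 794 of 62513 and 942 of 74531. Per kb of length, the circle thus ranked high in the controls and stood lower in the order of both knockdowns. A rank by count alone was not taken.

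The libraries also differed as a whole. Totals ranged from 282737 to 556578 counts, and in control replicate 1 exon circles made up 70.9% of the counts, against 84.9% to 85.7% in the other 3. Positions with an asterisk took 47.2% of all counts in control replicate 1 and 24.7% to 26.4% in the others. The leading circle was highest in that library. On the total of exon circles alone it stood at 63.9, 34.7, 10.3 and 9.27 per 100000 in control replicates 1 and 2 and knockdown replicates 1 and 2, and the order of the libraries was kept. The part of library composition in the difference was not tested. Among epithelial hosts, circles of EGFR, CDH1, EPCAM, GRHL2 and ESRP1 were found and none of KRT8 or KRT18, while the hosts listed for blood, stroma and endothelium had 6 counts in all, with 0 for PTPRC, COL1A2 and PECAM1.

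Summed over all 23 positions, ZKSCAN1 had 242 and 179 counts in the controls, against 28 and 37 after knockdown. These are 51.2 and 32.2 per 100000 against 9.90 and 9.47. The means were 41.7 ± 13.5 and 9.69 ± 0.304 (SD, n = 2 each), and the log2 fold change in the fit across 8379 host genes was -1.77 ± 0.35 (SE). Both knockdowns again lay below both controls, as they did for 36.7% of the host genes. A lower log2 fold change than that of ZKSCAN1 was found for 13.3% of the host genes. With TMM the host genes had a median of -0.26. With scaling by the library total they had a median of -0.58, and ZKSCAN1 stood at -2.10. On that scaling the leading circle stood at -2.15 in the fit across circles. TMM was computed separately for circles and for host genes. The values of -2.26 for the leading circle and -1.77 for the sum are thus on unlike scales.

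The positions beside the leading one had 28 and 15 counts in the controls, against 3 and 6 after knockdown. Per 100000 these were 5.93, 2.70, 1.06 and 1.54. The means were 4.31 ± 2.29 and 1.30 ± 0.336 (SD, n = 2 each), a ratio of 3.32 and a log2 ratio of -1.73. Without control replicate 1 the log2 ratio was -1.05. The circles of several exons had 11 and 6 counts in the controls, against 0 and 2 after knockdown, where a count of 0 in knockdown replicate 1 allows up to 1.06 per 100000. The positions of 1 exon had 17 and 9 counts in the controls, against 3 and 4 after knockdown. Both kinds were thus also less frequent in the knockdowns, on few counts. For positions of 1 exon, control replicate 2 at 1.62 per 100000 (0.739 to 3.07) overlapped the knockdowns at 1.06 (0.219 to 3.10) and 1.02 (0.279 to 2.62). Positions with an asterisk held 26 and 9 of the counts beside the leading circle in control replicates 1 and 2, against 3 and 5 after knockdown.

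The share of the leading circle among ZKSCAN1 counts was 88.4% in control replicate 1 (exact 95% binomial interval 83.7 to 92.2) and 91.6% in control replicate 2 (86.6 to 95.2). It was 89.3% (71.8 to 97.7) in knockdown replicate 1 and 83.8% (68.0 to 93.8) in knockdown replicate 2. The means were 90.0% ± 2.26 and 86.5% ± 3.89 (SD, n = 2 each). The groups overlapped, and the difference of -3.49 percentage points was smaller than the SD of the knockdowns. At 28 and 37 counts per knockdown library, a shift of this size was not detectable.

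Different ZKSCAN1 positions numbered 13 and 7 in the controls. The knockdowns had 3 and 5. Expected at an equal depth of 282737 counts per library, the controls had 10.4 and 5.63 positions and the knockdowns 3 and 4.15. The group means were 8.02 ± 3.37 and 3.58 ± 0.814 (SD, n = 2 each), a difference of -4.44 positions. Depth was made equal over the whole library and not over ZKSCAN1 counts, which were fewer in the knockdowns. The number of positions is therefore no measure separate from the lower count of the gene. Leaving out control replicate 1 gave -2.06, and leaving out control replicate 2 gave -6.82. Control replicate 1, which had the most positions, was also the library with the largest share of counts at positions with an asterisk, and the part of that share in the difference was not tested.

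The host genes whose profile over the 4 libraries was nearest to that of ZKSCAN1 were HNRNPC, CHKA, RAB11FIP1, G3BP2 and ATP2A2. Nearness was the Euclidean distance between log2(counts per 100000 + 0.5), each gene centred on its own mean, among 2513 host genes whose mean was within 4 times that of ZKSCAN1. HNRNPC, which encodes an RNA-binding protein of nuclear pre-mRNA, was nearest at a distance of 0.256. Its circles had 253 and 230 counts in the controls, against 33 and 49 after knockdown, which are 53.6, 41.3, 11.7 and 12.5 per 100000. CHKA, which encodes a choline kinase, was next at 0.338, with 37.9, 26.2, 6.01 and 7.94 per 100000. RAB11FIP1, an effector of Rab11 in endosomal recycling, followed at 0.348 with 23.3, 15.6, 4.24 and 5.63 per 100000.

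G3BP2, a stress granule protein, lay at 0.362 with 86 and 44 counts in the controls, against 8 and 11 after knockdown. ATP2A2, the calcium pump of the endoplasmic reticulum, lay at 0.392 with 73 and 52 counts against 10 and 14. The 5 genes lie on chromosomes 14, 11, 8, 4 and 12, none with ZKSCAN1 on chromosome 7. That they resembled ZKSCAN1 in the order of the groups followed from their choice by profile. They did not share its concentration on 1 circle. The leading position held 28.3% of the counts of HNRNPC, 22.5% of CHKA, 42.9% of RAB11FIP1 and 11.4% each of G3BP2 and ATP2A2. The likeness rests on 4 libraries and is given as a description.

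**Figure D4:**
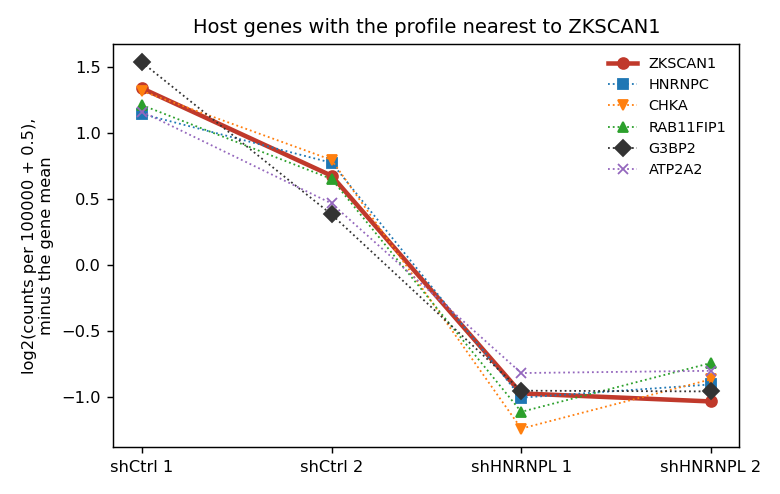
log2(counts per 100000 + 0.5) minus each gene's own mean, in the 4 libraries, for ZKSCAN1 (thick red line) and the 5 host genes nearest to it. All 6 profiles were higher in the 2 controls than in the 2 knockdowns, and highest in control replicate 1. The 5 genes were chosen for this likeness.

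ZKSCAN1 belongs to the SCAN family, mostly zinc finger proteins, whose SCAN domain lets members pair with one another. Of the 44 other family genes listed, 31 had circular counts and 13 had enough to be tested. In edgeR's quasi-likelihood test 0 of the 13 passed an adjusted p of 0.05 over all host genes, of which 0.442% passed. Those were 37 genes, of which 37 were higher in the knockdowns and 0 lower. An unadjusted p under 0.05 in edgeR was found for 1 of the 13, against 1154 of all 8379 host genes. DESeq2 also called 0 of the 13, against 184 of the 8379, with 175 higher and 9 lower in the knockdowns. Both knockdowns lay below both controls for 5 of the 13 and above them for 1, against 36.7% and 15.3% of all host genes. The median log2 fold change was -1.09, or -0.81 with the 3 genes at 0 in both knockdowns set to the limit of 3 counts per library, against -0.26 over all host genes. With scaling by the library total the median was -1.38, against -0.58. The 3 genes at 0, ZNF263, ZSCAN20 and ZSCAN23, entered the test on control replicate 1 alone. Their fold changes could thus only be negative, in either form of the median. When 5 counts were needed in each of 2 libraries, 6 family genes were tested. Their median was -0.89, against -0.12 over all host genes in that fit. The medians are given as a description, and a shift of the family was not tested. Most of the family genes had few counts, and 527 were counted over the whole family.

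ZNF394, a neighbour of ZKSCAN1 with a KRAB and a SCAN domain, had the most counts of these, 50 and 43 in the controls, against 43 and 56 after knockdown. Its means were 9.15 ± 2.02 and 14.8 ± 0.615 per 100000 (SD, n = 2 each), so both knockdowns lay above both controls. In the fit across host genes the log2 fold change of ZNF394 was 1.01 ± 0.36 (SE), and edgeR gave an adjusted p of 0.281. Fitted log2 fold changes of host genes use TMM scaling and are not the log2 ratios of the printed means. ZNF165 had 6.06 ± 2.21 and 2.62 ± 0.802 per 100000 (SD, n = 2 each), with a log2 fold change of -0.89 ± 0.56 (SE). ZSCAN31, ZNF24 and ZSCAN29 had 30, 27 and 22 counts in all and log2 fold changes of -0.81, -1.55 and 0.14, each within 2 SE of 0. Without control replicate 1, ZNF394 alone of the 5 then tested passed, with a log2 fold change of 1.16 and an adjusted p of 0.00073 in edgeR, in a fit where 25.1% of all host genes passed. Without control replicate 2, 4 of 11 passed, against 36.3% of all host genes, with ZNF394 higher and ZNF263, ZSCAN20 and ZSCAN23 lower. Those 3 had all their counts in control replicate 1, 15 for ZNF263 and 11 each for the other two.

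Among 40 listed genes around ZKSCAN1 on chromosome 7, 19 had circular counts and 7 were tested. None of the 7 passed an adjusted p of 0.05 in edgeR, against 0.442% of all host genes. An unadjusted p under 0.05 in edgeR was found for 1 of the 7, against 1154 of all 8379 host genes. DESeq2 called 0 of the 7, against 184 of the 8379. Their median log2 fold change was -0.37 against -0.26 over all host genes. SMURF1, a ubiquitin ligase, had the most counts, at 29.1 ± 4.61 per 100000 in controls against 30.7 ± 2.12 after knockdown (SD, n = 2 each), where the groups overlapped. ZNF394, ZKSCAN5 and ZSCAN25 are in this list and in that of the SCAN family. ARPC1A, TRIM4 and ZKSCAN5 had 47, 20 and 18 counts in all, and log2 fold changes of -0.29, -0.75 and -0.95. Without control replicate 1, ZNF394 alone of 5 tested neighbours passed, against 25.1% of all host genes, and without control replicate 2 it alone of 4 passed, against 36.3%.

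**Figure D5:**
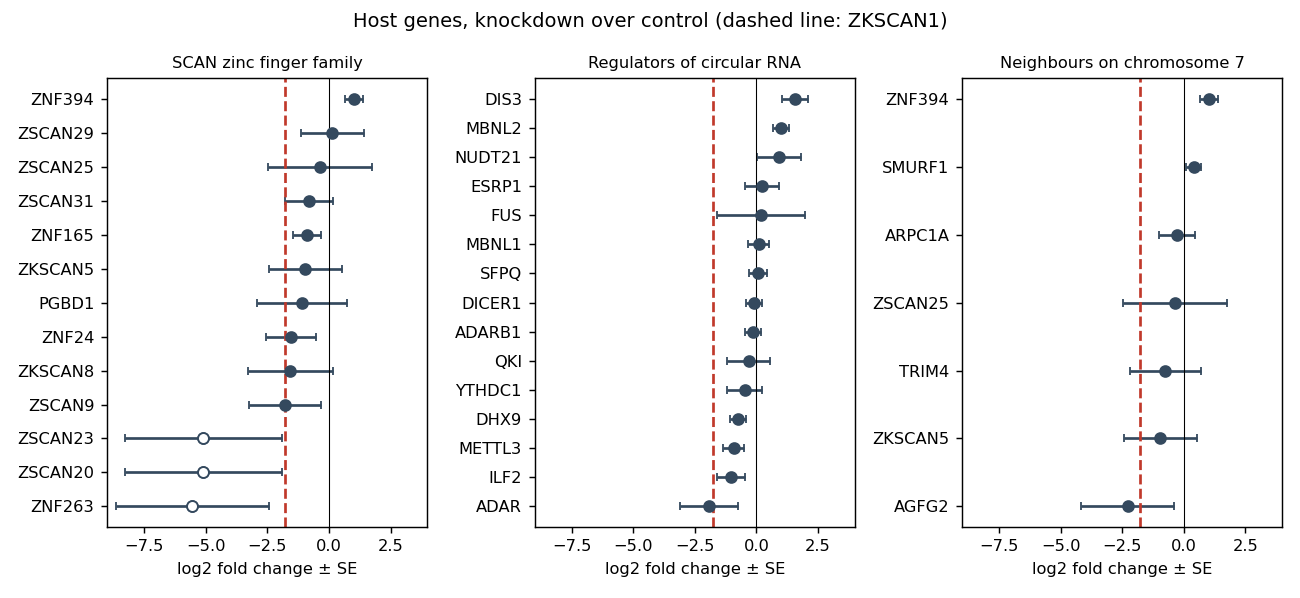
log2 fold change ± SE, knockdown over control, of the tested host genes of the SCAN family, of regulators of circular RNA and of the neighbours on chromosome 7; the dashed line marks ZKSCAN1 at -1.77, and hollow points are genes with 0 counts in both knockdowns, whose fitted values depend on the prior count. No gene shown passed an adjusted p of 0.05 in edgeR.

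Proteins that act on back splicing, export or turnover of circular RNA were followed as host genes of circles, which says nothing of their own level as proteins. Of 18 genes followed, 17 had circular counts and 15 were tested. In edgeR 0 of 15 passed an adjusted p of 0.05, against 0.442% of all host genes. An unadjusted p under 0.05 in edgeR was found for 2 of the 15, against 1154 of all 8379 host genes. DESeq2 called 0 of the 15, against 184 of the 8379. The median log2 fold change was -0.09 against -0.26 over all host genes. DHX9 is a helicase that unwinds paired inverted repeats. Its circles had 54.6 ± 6.04 per 100000 in controls against 25.9 ± 1.69 after knockdown (SD, n = 2 each). In the TMM-scaled fit the log2 fold change was -0.75 ± 0.33 (SE), and edgeR's adjusted p was 0.365. Circles of MBNL2, of the muscleblind family of splicing regulators, had 17.8 ± 4.53 and 28.5 ± 0.271 per 100000 (SD, n = 2 each). In the same fit the log2 fold change of MBNL2 was 1.01 ± 0.33 (SE), and edgeR's adjusted p was 0.246.

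DICER1 and ADARB1, a ribonuclease of small RNA and an RNA-editing enzyme, had log2 fold changes of -0.09 ± 0.34 and -0.13 ± 0.32 (SE). That of MBNL1 was 0.09 ± 0.43 (SE). Without control replicate 1, 3 of 13 tested regulators passed, DIS3 and MBNL2 higher and DHX9 lower, against 25.1% of all host genes. Without control replicate 2, 5 of 15 passed, against 36.3% of all host genes, with DIS3 and MBNL2 higher and ADAR, DHX9 and METTL3 lower. Both counts lay near the share of all host genes. ADAR had 41 counts in control replicate 1 and 3 in control replicate 2, against 2 and 4 after knockdown. With all libraries its groups overlapped, since control replicate 2 (0.539 per 100000) lay below both knockdowns (0.707 and 1.02).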

How the data were processed

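Circular RNA was copied from total RNA with Induro reverse transcriptase, amplified with phi29 polymerase and sequenced on nanopores, per the labels' protocols. The authors deposited raw counts per back-splice position, with CIRI-long named in each row, per the file headers. GRCh38.p14 and DESeq2 are named in the submitters' processing notes. The aligner, the base caller and the filters were not given in the sources used here. The deposited start, end and circle length, in nt, were used as given. A deposited table of scaled values was not used. Totals were 472428 and 556578 counts in the controls, against 282737 and 390547 after knockdown. A count of 0 allows up to 3 counts, or 0.635, 0.539, 1.06 and 0.768 per 100000 in that order.

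Groups came from the sample titles. Tests used edgeR 4.0.16 (R 4.3.3): quasi-likelihood, default dispersion, TMM on totals of all circles, at least 10 counts over 4 libraries, Benjamini-Hochberg over all features and a threshold of 0.05. A host gene's count summed every position that names it and is not antisense, so a position can count for several genes. SE came from the F statistic. DESeq2 1.42.0, other scalings and filters, left-out libraries and a replicate block were alternatives. Equal depth used the hypergeometric expectation. The fits were also run on simulated counts with the same spread in both groups, and no result here rests on that run. The gene, its members and the lists were chosen with earlier results of these data known. Named were members with at least 10 counts and the most frequent others, the 5 host genes of nearest profile, and of each list the genes past the threshold and the 5 with the most counts; other members and genes were named after their values were seen. Sequences of the circle were not used here, and 1 gene of the list of regulators is not reported here.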

Additional observations from a re-analysis of the deposited data

How the results depend on the processing

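ZKSCAN1 was chosen for lower counts in the knockdowns, so a kept sign is no independent support, and the ranges are given as a description. The log2 fold change of the leading circle stayed negative in all 12 alternatives, and the fits that left out 1 library gave -2.59 to -1.65. That of summed ZKSCAN1 stayed negative in 12 alternatives. It was -2.28 on the total of exon circles, and -1.83 to -1.49 with 1 library left out. For the other positions it stayed negative in 10 alternatives, and was -2.19 to -1.05 with 1 library left out. Some of these alternatives could not change that value: scaling by the library total, positions that name 1 gene, and merging within 10 nt. Merging within 10 nt could not change the leading circle either. The share of the leading circle differed by -6.24 to -0.74 percentage points and the number of positions by -6.82 to -2.06 with 1 library left out.

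Host genes past the threshold numbered 37, and 60 with DESeq2 size factors in edgeR, 184 with DESeq2, 0 with the newer dispersion method of edgeR (1266 at an unadjusted p under 0.05), 369 when unfiltered, 116 when 5 counts were needed in each of 2 libraries and 88 over positions that name 1 gene. With 1 library left out they ranged from 0 to 2775. Circles numbered 0, and 1085 with DESeq2, 471 when unfiltered and 1422 under that stricter filter. Their range was 0 to 6421 with 1 library left out. In those fits the lone library of a group is assumed to vary like the other group, so leaving out a control takes the spread from the close knockdown pair. The lists had 0 to 4 (SCAN family), 0 to 5 (regulators) and 0 to 1 (neighbours) genes past the threshold with 1 library left out. Beyond the number of features tested and of libraries, the cause was not tested.

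Both groups use replicate numbers 1 and 2, and the labels do not tie a number to a culture or a day. Over 4944 circles with at least 40 counts, the correlation of deviations between libraries of one number was 0.0706, so the numbers were not used as pairs. With a replicate block the log2 fold changes were -2.18 for the leading circle, -1.75 for summed ZKSCAN1 and -1.65 for the other positions, and 1620 circles and 300 host genes passed. Within replicate pairs 1 and 2 the share of the leading circle differed by 0.856 and -7.84 percentage points, a reversal in pair 1, and the number of positions by -7.40 and -1.48.

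Depth limits the minor positions, none of which had over 5 counts.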

Other observations

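Positions of the antisense type that name ZKSCAN1 belong to no comparison above. There were 12, all inside the stretch from 100034722 to 100038562 on chromosome 7, within the region of the most downstream exon listed. They were 615 to 3127 nt long, and all 12 carried an asterisk in the motif column. Their counts were 19 in control replicate 1, 0 in control replicate 2, 8 in knockdown replicate 1 and 11 in knockdown replicate 2. Per 100000 these were 4.02, 0, 2.83 and 2.82, where 0 counts in control replicate 2 allow up to 0.539. Of the 12 positions, 8 were seen in 1 library only. The controls held both the highest and the lowest value, so the groups overlapped.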
